A study of Mus musculus with 20 samples.

Results

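The data describe the chromatin of haematopoietic stem cells (HSC) from mTOR knockout mice in 4 assays: the histone marks H3K4me3 and H3K27ac, binding of the transcription factor MYC, and chromatin accessibility by ATAC-seq. They comprise the 5 knockout peak lists, chosen by their labels, out of 20 samples in the series; the other samples were not analysed here. All 5 came from adult Mx1-Cre+/-;mTORflox/flox mice that received poly(I:C), and the HSC were isolated by FACS. Mx1-Cre is driven by an interferon-inducible promoter and is active in many tissues besides HSC, and the labels do not say how many animals went into a library. There was 1 library each for H3K4me3, H3K27ac and MYC and there were 2 libraries for ATAC, so ATAC alone had a replicate and no test was made. The chromatin for ChIP was fixed with 1% formaldehyde, and each ATAC library started from 50000 sorted cells.

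H3K4me3 is deposited by SET1 and MLL methyltransferases around active and poised transcription starts, and H3K27ac, written by CBP and p300, marks active promoters and enhancers. MYC dimerises with MAX and binds DNA, with highest affinity for the E-box CACGTG, at promoters that are already open and at enhancers, and it drives growth genes such as those of ribosome production. mTOR, the kinase of the complexes mTORC1 and mTORC2, controls translation and ribosome production, and blood stem cells depend on a tight setting of both mTOR and MYC. A peak from a bulk library cannot separate a site used in few cells from a site used weakly in all.

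The 5 promoters printed here, 250 bases upstream of the annotated start, span the combinations that the results turn on. They were chosen after their values were seen, to set promoters with and without a MYC peak beside the presence or absence of the E-box, and Rheb, Runx1, Sirt1 and Cdk4 hold CACGTG, in capitals, while Rpl27 does not. Sequences are from RefSeq on GRCm38.p6 (mm10), 5′ to 3′ on the strand of the gene. Cdk4 (chr10:127063285-127063534, plus strand), a kinase of G1 progression, holds 4 E-boxes, and Rheb (chr5:24842362-24842611, minus strand), the GTPase that activates mTORC1, holds 1. Both carried all 4 assays at the start. Runx1 (chr16:92826075-92826324, minus strand), a master regulator of HSC formation, holds 1 and had no MYC peak. Sirt1 (chr10:63339036-63339285, minus strand), a deacetylase, holds 2 and had H3K4me3 and open chromatin alone. Rpl27 (chr11:101441995-101442244, plus strand), a ribosomal protein gene, holds none and led the named genes by the lowest of its ranks over the 4 assays.
Cdk4: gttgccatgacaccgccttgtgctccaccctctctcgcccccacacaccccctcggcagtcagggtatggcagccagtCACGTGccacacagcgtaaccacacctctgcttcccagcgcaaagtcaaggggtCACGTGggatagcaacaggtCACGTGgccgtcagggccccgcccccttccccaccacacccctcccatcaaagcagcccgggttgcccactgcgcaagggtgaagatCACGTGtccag
Rheb: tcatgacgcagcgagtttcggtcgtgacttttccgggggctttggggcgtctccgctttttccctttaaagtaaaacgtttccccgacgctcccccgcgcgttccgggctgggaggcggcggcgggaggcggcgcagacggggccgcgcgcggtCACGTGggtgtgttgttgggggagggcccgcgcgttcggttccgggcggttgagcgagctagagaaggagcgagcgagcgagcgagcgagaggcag
Runx1: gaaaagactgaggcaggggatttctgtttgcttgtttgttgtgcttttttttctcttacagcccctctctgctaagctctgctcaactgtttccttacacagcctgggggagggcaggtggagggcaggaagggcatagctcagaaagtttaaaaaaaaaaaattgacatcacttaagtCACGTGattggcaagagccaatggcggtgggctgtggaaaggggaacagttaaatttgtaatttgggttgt
Sirt1: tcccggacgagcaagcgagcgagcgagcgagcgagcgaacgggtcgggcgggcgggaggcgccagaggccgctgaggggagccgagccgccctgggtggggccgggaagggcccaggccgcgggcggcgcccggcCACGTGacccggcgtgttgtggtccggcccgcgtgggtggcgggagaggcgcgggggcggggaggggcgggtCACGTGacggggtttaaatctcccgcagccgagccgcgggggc
Rpl27: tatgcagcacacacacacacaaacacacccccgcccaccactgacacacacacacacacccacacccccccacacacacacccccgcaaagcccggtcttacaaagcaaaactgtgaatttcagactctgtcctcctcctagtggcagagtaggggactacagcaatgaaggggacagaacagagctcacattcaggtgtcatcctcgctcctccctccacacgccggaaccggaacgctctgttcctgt

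The kept lists on chromosomes 1 to 19 and X held 16019 H3K4me3 peaks, 20036 H3K27ac peaks, 22086 MYC peaks, 19174 peaks of the first ATAC library and 72149 of the second. Median peak widths were 2608 bp for H3K4me3, 1237 bp for H3K27ac, 455 bp for MYC, and 514 and 549 bp for ATAC. Every list began at a score of about 50.0. The score is the authors' own value for each peak, on a scale that the lists do not explain, and it served only to rank peaks within a list. The lists carry no read counts, so depth is unknown and a missing peak may be a weak one. Intervals in the text are exact 95% Clopper-Pearson intervals and cover the counting of genes or sites only.

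At Mtor itself (chr4:148448582-148557685), the targeted gene, none of the 5 lists had a peak within 1 kb of the annotated start. At the other end the H3K4me3 score was 218.63, the H3K27ac score 178.39 and the score in the second ATAC library 183.02, with no peak for MYC or in the first ATAC library. All 3 of these peaks also reached an end of the neighbouring gene Exosc10. The labels do not say which part of Mtor the floxed allele removes, so whether the missing peaks at the start bear on the genotype label was not tested. Myc (chr15:61985341-61990361) had H3K27ac at 160.27 and ATAC at 103.85 and 456.71 at its lower end, with neither H3K4me3 nor MYC listed there, and no peak at its upper end.

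A gene end was defined as the sequence within 1 kb of either annotated end of a protein-coding gene, and a gene took the combination of its end with the most assays. Starts of shorter transcripts inside a gene were not counted as gene ends, so a gene with no peak at its ends can have one at such a start. Of 21627 genes, 11718 (54.2%) had H3K4me3, 8484 (39.2%) H3K27ac, 4659 (21.5%) MYC and 14158 (65.5%) open chromatin in at least 1 ATAC library. The first ATAC library had a peak at 9485 genes (43.9%) and the second at 14137 (65.4%). All 4 assays met at 1 end in 3874 genes (17.9%, interval 17.4 to 18.4). H3K4me3 and H3K27ac with open chromatin but no MYC were on 4045 genes (18.7%), H3K4me3 with open chromatin alone on 3032 (14.0%), and open chromatin alone on 2354 (10.9%). A further 6856 genes (31.7%) had none. The remaining 11 combinations were rare: the most frequent was H3K4me3, MYC and open chromatin without H3K27ac, on 368 genes (1.70%), and MYC alone was on 133. With peaks of a score of at least 100 only, all 4 assays met at 1340 genes. Without the second ATAC library, H3K4me3 with open chromatin alone was on 1689 genes and open chromatin alone on 395.

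**Figure D1:**
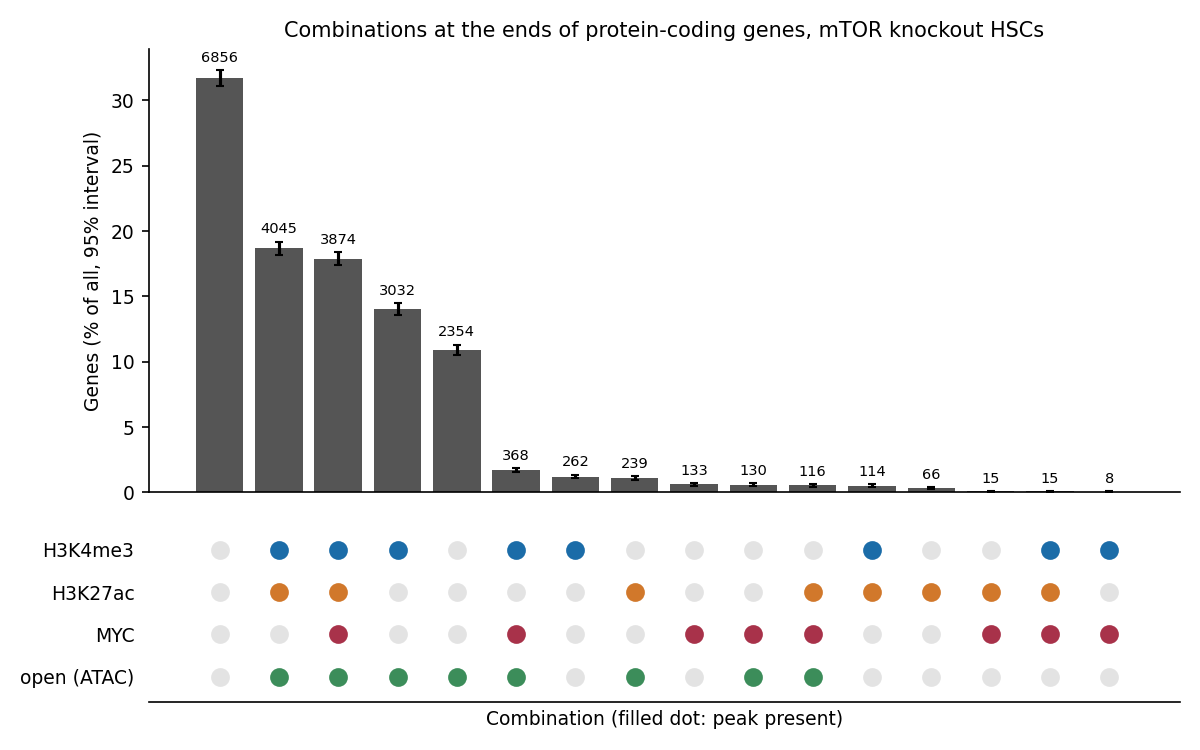
Share of protein-coding genes (percent of 21627, linear axis) carrying each combination of H3K4me3, H3K27ac, MYC and open chromatin within 1 kb of a gene end in mTOR knockout HSC; bars have 95% Clopper-Pearson intervals and the number of genes above them, and filled dots show the assays present. Genes with no peak (6856), with both marks and open chromatin (4045) and with all 4 assays (3874) form the 3 longest bars, while every combination of MYC without H3K4me3 is short.

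The marks nested. Of the genes with H3K4me3, 96.6% were open at the same end. Among genes with H3K4me3 and open chromatin, 70.0% had H3K27ac, against 32.3% where H3K4me3 had no open chromatin. MYC was present at 48.9% (47.8 to 50.0, n = 7919) of the genes with both marks and open chromatin, at 10.8% (9.80 to 11.9, n = 3400) of those with H3K4me3 and open chromatin but no H3K27ac, and at 5.23% of those that were open without either mark. Those with H3K27ac and open chromatin without H3K4me3 had MYC in 32.7% (n = 355). With scores of at least 100 only, the first 2 of these shares were 21.1% and 5.00%. The MYC share thus stood higher where H3K27ac was present, with or without H3K4me3. Read the other way, 83.2% of the genes with MYC had all 3 other assays, 96.3% were open and 86.3% had H3K27ac. Between 25.4% and 36.4% of the genes with a peak, depending on the list, shared it with another gene, so genes are not independent counts.

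These combinations lay at starts. Where the strand was known (17273 genes), 53.6% of starts but 8.33% of the opposite ends had H3K4me3, and for MYC the shares were 21.0% and 3.63%. The end with the most assays was the start in 93.7% of the genes with all 4, 78.9% of those with open chromatin alone and 52.0% (41.8 to 62.0) of those with MYC alone. Around the start, peak midpoints took different sides. Within 1 kb, the median midpoint was 366 bp downstream for H3K4me3 and 214 bp downstream for H3K27ac, and 81.4% and 66.7% of them lay downstream. MYC had its median 43.0 bp upstream of the start, with 42.6% of midpoints downstream. Both ATAC libraries lay between MYC and the marks, at 32.0 and 118 bp downstream.

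**Figure D2:**
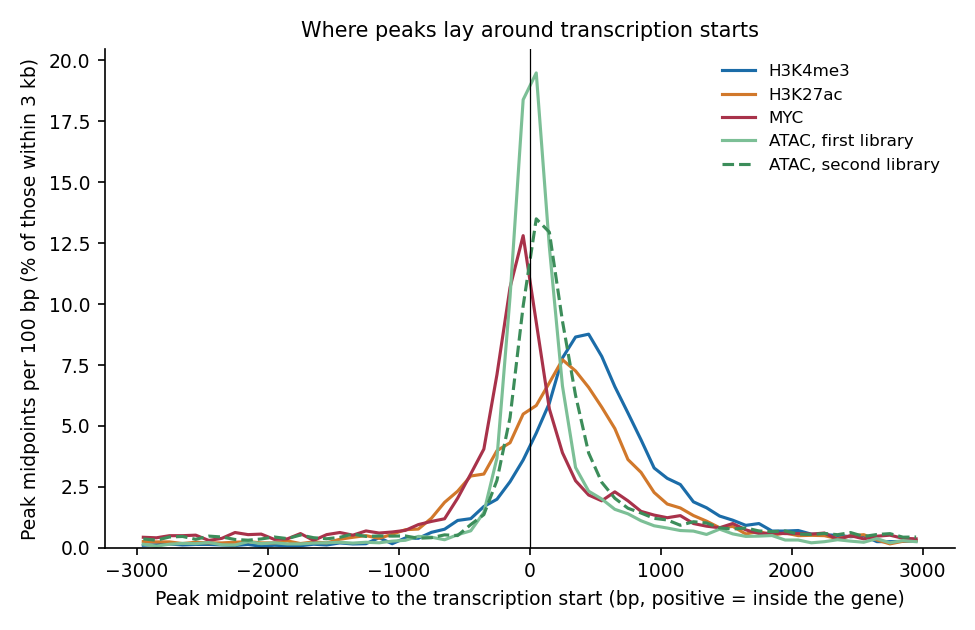
Peak midpoints of the 5 lists per 100 bp, as a percent of those within 3 kb, by distance from the annotated start of the gene, in base pairs, with positive values downstream. MYC midpoints center just upstream (median -43.0 bp), ATAC midpoints just downstream (32.0 and 118 bp), and H3K27ac and H3K4me3 midpoints farther downstream (214 and 366 bp).

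How open an end was tracked the other assays closely. The 14137 genes with a peak in the second ATAC library were put in 10 groups of equal size by the score of that peak. In the lowest group (scores 50.06 to 116.53), 26.7% had H3K4me3, 8.14% H3K27ac, 3.82% MYC and 3.82% a peak in the first ATAC library. In the fifth group the shares were 89.5%, 61.5%, 27.2% and 77.1%. In the highest group (1187.15 to 2795.26) they were 98.7%, 90.5%, 68.4% and 98.7%. H3K4me3 therefore reached its plateau at middling accessibility, while H3K27ac and MYC continued upward to the top. The genes with H3K4me3, ranked by the H3K4me3 score instead, had MYC in 13.9% of the lowest of 10 such groups and 54.6% of the highest; ranked by H3K27ac, the shares were 27.5% and 74.9%. All of these shares come from lists with a lower limit on the score, so a weak peak counts as absent.

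**Figure D3:**
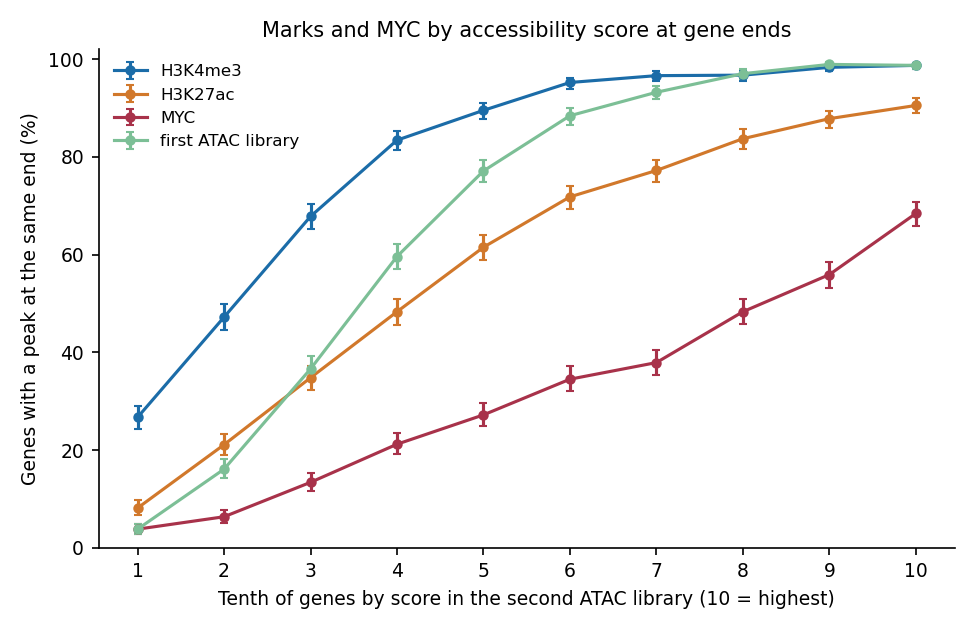
Share of genes (percent) with H3K4me3, H3K27ac, MYC or a peak in the first ATAC library at the same end, in 10 groups of equal size by score in the second ATAC library, lowest to highest, with 95% Clopper-Pearson intervals. H3K4me3 runs from 26.7% to 98.7% and is at 89.5% in the fifth group, while MYC runs from 3.82% to 68.4%.

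A small group of very open ends lacked H3K4me3 altogether. Of the genes in the highest of the 10 groups by ATAC score, 18 had no H3K4me3 peak, and for none of them was one listed within 2.5 kb. The group was singled out after these values were seen, and it included 4933440N22Rik, Adgrg1, Cbx5, Cds2, Cks2, Etv6, Fem1c, Hnrnpa1, Klhl28, Kmt2e, Pcna, Serbp1, Sp4, Sypl and Togaram1. H3K27ac and MYC were both present at 12 of the 18 genes. Over all genes in the highest group by ATAC score, 90.5% had H3K27ac and 68.4% had MYC, each counted singly. Cds2 and Pcna, the replication clamp, shared peaks of H3K27ac at 338.88, MYC at 107.12 and ATAC at 367.23 and 1709.71. Cbx5, heterochromatin protein HP1 alpha, and Hnrnpa1, a splicing regulator, shared a MYC peak of 258.67 with ATAC at 156.12 and 1319.49. Whether such an end is unmarked or its H3K4me3 peak is only not in the list was not tested.

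The rank within a list gave the same layering. At the genes with all 4 assays, the median percentile rank of the gene's peak was 76.9 for H3K4me3, 82.9 for H3K27ac, 62.5 for MYC and 94.9 in the second ATAC library, where 100 is the top of the list. Without MYC but with both marks, they were 72.5, 68.1 and 90.6 for H3K4me3, H3K27ac and ATAC. Genes with H3K4me3 and open chromatin alone had an H3K4me3 rank of 39.2 and an ATAC rank of 80.6, and their H3K4me3 peaks had a median width of 2215 bp against 3712 bp at the genes with all 4. MYC peaks that stood alone at a gene end ranked at 50.2. Among genes with both peaks, the Spearman correlation of scores was 0.33 for H3K4me3 and H3K27ac (n = 6705), 0.25 for MYC and the second ATAC library (n = 3680), 0.20 for H3K27ac and MYC (n = 3252) and 0.01 for H3K4me3 and MYC (n = 3474). With the second ATAC library it was 0.39 for H3K4me3 (n = 9797) and 0.26 for H3K27ac (n = 6951), but 0.01 and 0.09 among genes with a peak in all 5 lists (n = 2891 and 2894). In those genes it was 0.27 for H3K4me3 and H3K27ac, 0.22 for MYC and ATAC, 0.20 for H3K27ac and MYC and -0.03 for H3K4me3 and MYC. The 2 ATAC libraries correlated at 0.79 (n = 8177). These are descriptions over genes that share libraries and, in part, peaks.

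Sequence at the promoters was read in 15533 RefSeq windows of 300 bases (250 before and 50 after the start) with 7 motifs searched on both strands. The E-box CACGTG was in 8.11% of all windows. It was in 11.6% (10.5 to 12.8) of those at genes with all 4 assays, 10.5% (9.43 to 11.6) of those with both marks and open chromatin but no MYC, 9.12% with H3K4me3 and open chromatin alone and 4.05% with none. With the genes in 5 groups by MYC score, the share was 11.4% in the lowest and 12.2% in the highest. The intervals with and without MYC thus overlapped, and the share was about the same at low and high MYC scores. The ETS motif CCGGAAG was in 12.2% of all windows and in 25.6% and 23.1% of those with all 4 assays and with both marks without MYC. It was in 9.03% of windows with H3K4me3 and open chromatin alone and 2.39% with none. CCAAT was in 46.2% with all 4, 35.7% with both marks without MYC and 39.8% of all. The GC box GGGCGG was in 68.3%, 66.1% and 47.4%, and TATAAA in 6.20%, 6.61% and 13.8%. The GATA motif GATAAG was in 6.94% of all windows and the RUNX motif TGTGGT in 14.7%. Median GC content was 60.7% with all 4, 61.0% with both marks without MYC, 63.3% with H3K4me3 and open chromatin alone and 46.3% with none. How far base composition accounts for the motif shares was not tested. Matches of different motifs can overlap, and a match is a string, not a bound site.

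Ribosomal protein genes held 3 of the 8 highest H3K4me3 places among the named genes, a count with no test. Rpl41, a ribosomal protein gene, and its divergent neighbour Zc3h10 shared the top peak (1254.05, place 9 in the list), and Trnau1ap, needed for selenocysteine insertion, followed at 1219.87. Nolc1, a nucleolar chaperone of small nucleolar RNPs, had 1138.54, and the ribosomal protein genes Rpl5 and Rpl31 had 1137.53 and 1088.10. For H3K27ac the highest were Mttp and Trmt10a, on 1 shared peak of 1028.43 (place 12), Coq7, of ubiquinone synthesis, at 957.95, Foxred1 and Srpr on a shared peak of 940.55 and Rps14, a small-subunit ribosomal protein, at 936.76.

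The highest MYC peak at a named gene stood lower in its list. It was at Lypd4 (639.21, place 76), with H3K27ac at 214.59 and no H3K4me3 or open chromatin. Paip1, a translation factor that binds poly(A)-binding protein, came next (602.74) and carried all 4 assays, as did Dnajc3 and Uggt2 on a shared peak of 569.50; both act in protein folding in the endoplasmic reticulum. The Lars2 peak, at a mitochondrial leucyl-tRNA synthetase, scored 431.50. For accessibility, Zbtb20, a zinc-finger repressor, was highest in both ATAC libraries (839.95 and 2795.26). Gsk3b, a kinase inhibited by AKT, had 445.76 and 2779.60, with H3K4me3 at 244.19, H3K27ac at 427.00 and MYC at 76.10. Sp4, a GC-box factor, had 745.04 and 2696.37. Ripk2, of innate immune signalling, had 836.76 and 2274.60 with H3K4me3 at 296.35 and neither H3K27ac nor MYC.

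Few genes stood high in every assay at once. By the lowest of the gene's ranks, Rpl27 led (H3K4me3 712.37, H3K27ac 539.97, MYC 246.32, ATAC 134.63 and 1039.53). Gys1, muscle-type glycogen synthase, followed with 832.88, 677.02, 221.78 and ATAC at 162.87 and 1348.78. Herpud1, of endoplasmic reticulum stress, had 713.80, 570.36, 213.43 and ATAC at 185.00 and 1296.00. Calm3, a calmodulin, had 667.93, 411.27, 200.12 and 427.65 and 1621.26. The others were pairs on shared peaks: Foxred1 and Srpr, Fyco1 and Xcr1, and Cdc45, a replication helicase subunit, with Ufd1.

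The other combinations had leaders of different kinds. Without MYC, Cox7c, a subunit of cytochrome oxidase, had H3K4me3 at 830.93, H3K27ac at 583.87 and ATAC at 353.08 and 1394.54. With H3K4me3 and open chromatin alone, Rpl22 had 652.67 and 1056.01 in the second ATAC library. With H3K4me3, MYC and open chromatin but no H3K27ac, Numb, a Notch antagonist that sets cell fate, had H3K4me3 at 510.32 and MYC at 183.46, and Dolpp1 had 566.99 and 208.66. H3K27ac, MYC and open chromatin without H3K4me3 were carried by Kdm6b, an H3K27 demethylase (407.00 and MYC 170.45), and Srsf3, a splicing factor (350.72 and 142.44). Eif5a, a translation factor, had H3K27ac at 458.77 and ATAC at 260.72 and 786.32 only. MYC and open chromatin without a mark were at Kmt2e, of the MLL family (MYC 226.82), and Nfe2, of megakaryocytes and red cells (208.73, ATAC 174.58 and 1164.23). MYC alone was highest at Gip (252.44), an incretin hormone of the gut, and Arhgef15 (220.12), and open chromatin alone at Etv6, an ETS repressor that HSC need (164.65 and 1248.83), and Hsp90aa1, a chaperone (130.15 and 1008.03).

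The share with all 4 assays ranged widely over the gene lists, beside 17.9% of all genes. Both marks and open chromatin without MYC were on 18.7% of all genes, and 31.7% of all genes had no peak. Of all genes with both marks and open chromatin, 48.9% had MYC. In ribosome biogenesis, 25 of 40 genes (62.5%, 45.8 to 77.3) carried all 4, and 27 of 40 had MYC, where 21.5% of all genes did. Nop16 had H3K4me3 at 584.22, H3K27ac at 491.08 and MYC at 187.67, and Fbl, the methyltransferase of nucleolar RNPs, had 479.20, 232.36 and 158.02. Wdr75, needed for pre-rRNA processing, had 611.12 and 370.79 without MYC. Of 83 ribosomal protein genes, 42 (50.6%) carried all 4 and 29 both marks and open chromatin without MYC, and their median H3K4me3 percentile was 96.7. Rps6, the S6 protein downstream of mTOR, was among those without MYC (930.84, 418.78, ATAC 161.31 and 963.62). Mitochondrial ribosomal proteins stood at 36 of 78 (46.2%) and proteasome subunits at 22 of 39 (56.4%).

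Transcription elongation and the cell cycle were also high. P-TEFb, the kinase that releases paused polymerase, and its partners carried all 4 in 18 of 28 genes (64.3%, 44.1 to 81.4). Larp7, a scaffold of the 7SK complex, had H3K4me3 at 655.71, H3K27ac at 503.40 and MYC at 154.81, and Ccnt1, the cyclin of P-TEFb, had 499.52, 348.96 and 158.01. In the cell cycle list 18 of 39 (46.2%) carried all 4. Cdk4 had 624.43, 215.87, 198.67 and ATAC at 140.23 and 846.48, and Mcm4 of the replicative helicase had 599.73, 517.00 and 149.41. Cdk1, the mitotic kinase, had 702.84 and 287.58 with no MYC peak. The 66 replication-dependent histone genes carried all 4 in 45 (68.2%, 55.6 to 79.1), but they sit in clusters of near-identical copies and their MYC peaks numbered 30, so the count is uncertain. Their median ranks were 25.2 for H3K4me3, 84.1 for H3K27ac and 76.2 for MYC, so H3K4me3 ranked low here and near the top at the ribosomal proteins. Immediate early genes had MYC in 12 of 20 (60.0%), where 21.5% of all genes did. Jun had 423.39 for H3K4me3, 597.39 for H3K27ac and 177.36 for MYC, and Atf3 had 229.13 and MYC 205.04 with no H3K27ac.

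**Figure D4:**
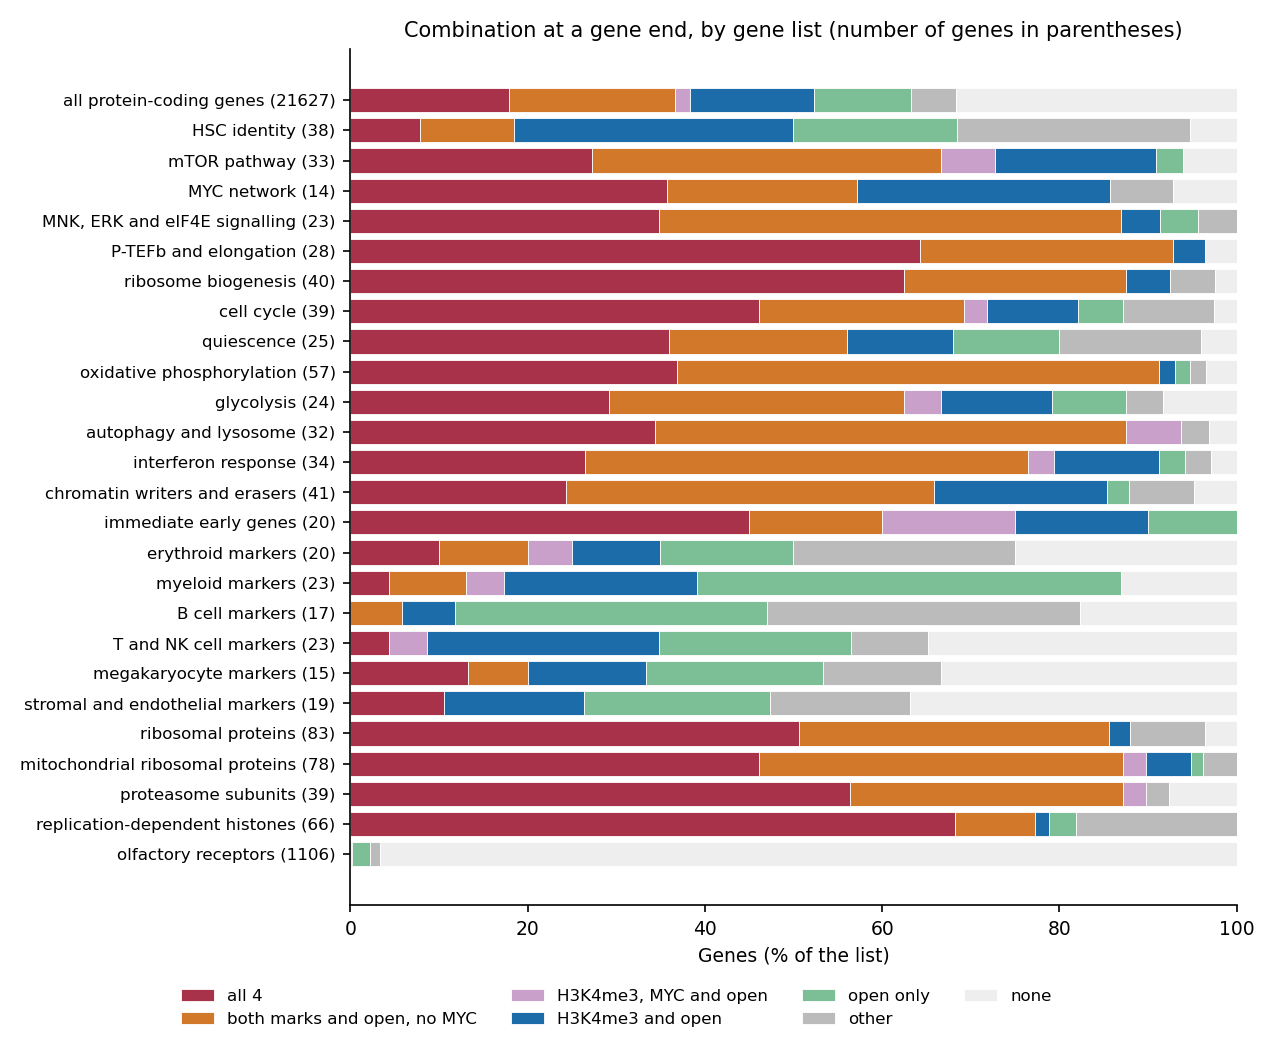
Share of each gene list (percent) carrying each combination at a gene end, with the number of genes in the list, beside all 21627 protein-coding genes. Histone genes (68.2%), elongation genes (64.3%) and ribosome biogenesis genes (62.5%) have the highest shares with all 4 assays against 17.9% of all genes.

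For the pathway around the deleted kinase, 9 of 33 mTOR pathway genes (27.3%, 13.3 to 45.5, an interval that holds the 17.9% of all genes) carried all 4 assays, and 13 had both marks and open chromatin without MYC. Rheb had H3K4me3 at 548.64, H3K27ac at 445.95, MYC at 114.83 and ATAC at 240.94 and 1435.51. Lamtor1, a lysosomal anchor of mTORC1, had 565.90, 331.85 and 158.42, Rptor, the mTORC1 scaffold, had 485.29, 156.91 and 123.31, and Rps6kb1, the S6 kinase, had 419.46, 286.59 and 131.24. Tsc1, a brake on Rheb, had H3K4me3 at 469.00 and MYC at 166.51 with no H3K27ac. Deptor, an inhibitor of both complexes, had 592.77 with neither, and Rraga, a GTPase that recruits mTORC1 to the lysosome, had both marks without MYC. In the MYC network 5 of 14 genes (35.7%, 12.8 to 64.9) carried all 4, among them the partner Max (210.68, 75.64, 107.33) and the antagonists Mnt (391.80, 367.97, 172.27) and Mxd4 (446.86, 112.20, 238.86).

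Most metabolic and interferon genes were marked and open, and a minority had MYC. MYC was at 36.8% of oxidative phosphorylation, 33.3% of glycolysis, 40.6% of autophagy and lysosome and 29.4% of interferon genes, beside 21.5% of all genes. In oxidative phosphorylation 54 of 57 genes had H3K4me3 and 53 had H3K27ac, where 54.2% and 39.2% of all genes did, and 21 (36.8%) carried all 4 against 31 with both marks and open chromatin without MYC. Ndufv1 of complex I had 604.45, 429.27 and 153.08. In glycolysis 7 of 24 (29.2%) carried all 4, as Hk2, a hexokinase, did (467.41, 110.78, 108.36). Autophagy and lysosome genes stood at 11 of 32 (34.4%). Lamp1, a lysosomal membrane protein, had MYC at 58.43 with H3K4me3 at 386.68 and no H3K27ac. Since poly(I:C) induces interferon, the interferon response list is given too: 32 of 34 genes had H3K4me3, 9 (26.5%) carried all 4, and 17 had both marks and open chromatin without MYC. Stat2 had 521.94, 150.30 and 113.75. Chromatin writers and erasers stood at 10 of 41 (24.4%), quiescence genes at 9 of 25 (36.0%), and genes of MNK, ERK and eIF4E signalling, a branch that acts on cap-dependent translation, at 8 of 23 (34.8%). Of the quiescence genes, Btg2, an antiproliferative factor, had 522.68, 438.08 and 135.93, and of the signalling genes Mknk2, an eIF4E kinase, had 330.15, 205.35 and 250.65. The intervals of the glycolysis, interferon, chromatin and MNK lists (16.4 to 57.3 for the last) all held 17.9%.

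Of the genes that define HSC identity, 35 of 38 were open (92.1%, against 65.5% of all genes). The first ATAC library had a peak at 21 of the 38 (55.3%, against 43.9% of all genes). H3K4me3 and MYC stood near the share of all genes, at 20 (52.6%, against 54.2%) and 8 (21.1%, against 21.5%), and 3 carried all 4 assays (7.89%, 1.66 to 21.4, an interval that holds 17.9%). Open ends were frequent in other lists too: 20 of 23 myeloid markers were open, and 9 of these 23 had H3K4me3. The 3 HSC identity genes with all 4 assays were Hhex, Egr1 and Lyl1, all transcription factors of the early haematopoietic program. Hhex had H3K4me3 at 191.89, H3K27ac at 57.62, MYC at 171.74 and ATAC at 103.55 and 935.66. Mecom, which maintains long-term HSC, had 239.72, 148.08 and ATAC at 135.64 and 508.98 without MYC. Runx1 had 408.68 and 231.75 with 92.50 in the second ATAC library alone. Mllt3, a regulator of HSC self-renewal, had H3K4me3 at 266.86 and ATAC at 105.42 and 521.71 without the other assays.

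The remaining HSC genes spread over many combinations, and the examples that follow were chosen after their values were seen. Tal1 had H3K27ac at 192.30, MYC at 58.21 and ATAC at 103.32 and 737.64 without H3K4me3. Kit, the stem cell factor receptor, had MYC at 70.56 and ATAC at 90.22 and 751.22. Meis1 (89.77 and 461.70), Myb (79.98 and 436.93) and Spi1 (55.16 and 199.00) were open with no other assay. Fli1 and Ldb1 had no peak at either end in any list. Each had 1 distal region, inside it or nearest to it, with H3K27ac and open chromatin but no H3K4me3.

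Markers of other blood and stromal cells were checked as well, because the sort can leave such cells. All 4 assays met at 2 of 20 erythroid genes, 1 of 23 myeloid, 0 of 17 B cell, 1 of 23 T and NK cell, 2 of 15 megakaryocyte and 2 of 19 stromal and endothelial genes. The share of all genes was 17.9%, and the interval of each of these lists held it. The share of the HSC identity genes was 7.89%, so these counts do not set the other lineages apart from HSC. Beside 65.5% of all genes, open chromatin was listed at 20 of 23 myeloid genes (87.0%), 13 of 20 erythroid genes (65.0%), 9 of 17 B cell genes (52.9%) and 14 of 23 T and NK cell genes (60.9%). The first ATAC library had a peak at 3 of the myeloid genes, where 43.9% of all genes had one. H3K27ac was at 3 of 23 myeloid genes (13.0%), against 39.2% of all genes. Defining markers with no peak at either end included Hba-a1, Hba-a2 and Gata1 of red cells, Ly6g and Cebpe of granulocytes, Pax5 and Ms4a1 of B cells, and Cd3e, Cd3g and Cd8a of T cells. Other markers did have peaks. Cd3d, a T cell receptor subunit, carried all 4 at its far end (138.53, 286.54, 123.47, ATAC 113.02 and 829.23). Klf1, an erythroid transcription factor, had H3K4me3 at 453.50, H3K27ac at 62.93 and 532.28 in the second ATAC library, and the globin genes Hbb-bs (77.09) and Hbb-bt (64.22) were open in that library only. Also with all 4 were Csf2ra, the GM-CSF receptor alpha chain (242.52, 718.22, 220.74, ATAC 288.42 and 1101.96), and Tfrc, the transferrin receptor that dividing cells also use (318.05, 118.10, 98.30). Olfactory receptors, which blood cells do not use, carried all 4 in 0 of 1106 genes and had no peak in 96.7%. How many cells of other types the libraries held was not tested.

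Away from gene ends, merging the 5 lists gave 71261 distal regions among 86340 in all. Distal here means away from the ends of protein-coding genes only, so starts of shorter transcripts and of other genes can lie in these regions. Most carried 1 assay: 42841 (60.1%) were open only and 11439 (16.1%) had MYC only, while 13725 (19.3%) had at least 2 assays. H3K27ac with open chromatin, the usual signature of an active enhancer, was on 4297 (6.03%), and on 1428 more with MYC (2.0%). All 4 assays met at 943 (1.32%). H3K27ac stood alone on 2471 (3.47%) and with MYC but no open chromatin on 882 (1.24%), and MYC with open chromatin alone was on 2208 (3.10%). H3K4me3 away from gene ends was with open chromatin on 1867 (2.62%), with H3K27ac and open chromatin on 1483 (2.08%) and alone on 785 (1.10%). The rest were few: H3K4me3 with H3K27ac on 289 (0.406%), with MYC and open chromatin on 232 (0.326%), with H3K27ac and MYC on 52 (0.0730%) and with MYC on 44 (0.0617%). Without the second ATAC library the counts were 4375 for open only, 1210 for H3K27ac with open chromatin and 749 for these with MYC, so the distal open sites rested largely on that library. With scores of at least 100 only, 26913 were open only, 3143 had MYC only, 2032 had H3K27ac with open chromatin, 327 these with MYC and 244 all 4. Of the distal regions that were open only, 8.91% were open in both libraries, against 28.8% with H3K27ac, 53.2% with H3K27ac and MYC and 78.0% with all 4.

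**Figure D5:**
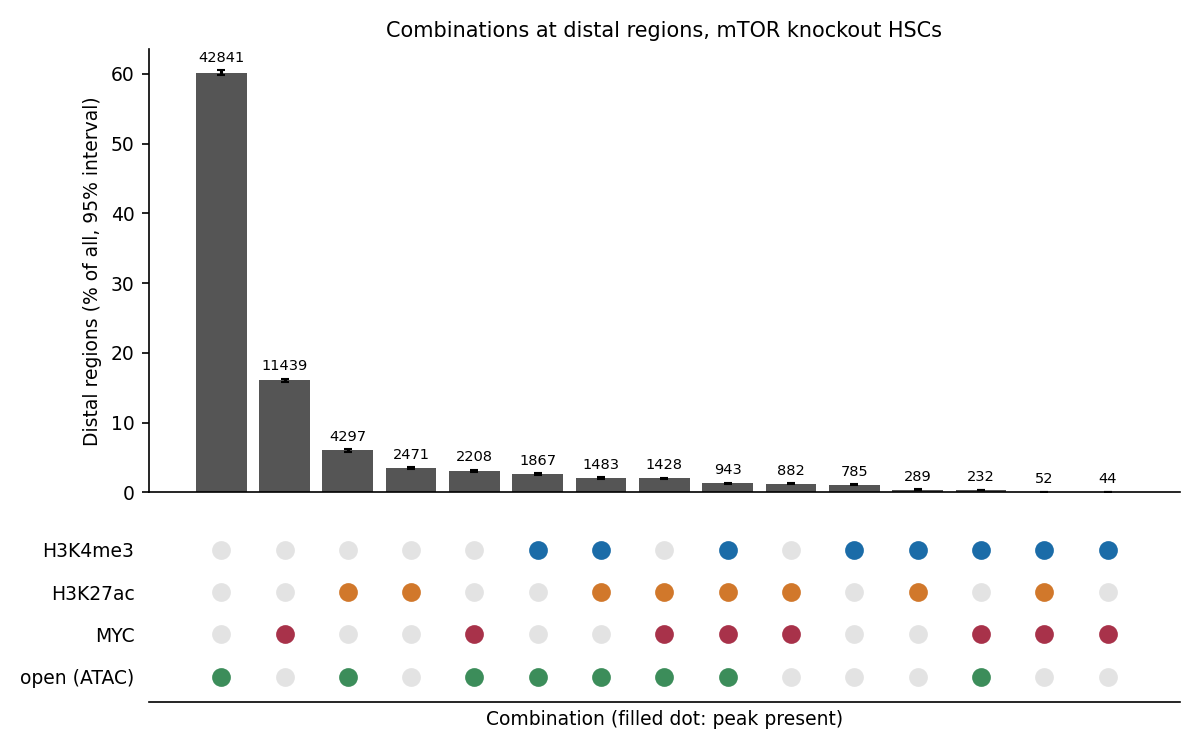
Share of distal regions (percent of 71261, linear axis), those with no base within 1 kb of a protein-coding gene end, carrying each combination of assays; bars have 95% Clopper-Pearson intervals and the number of regions above them, and filled dots show the assays present. Open chromatin only (42841) and MYC only (11439) hold most regions, and H3K27ac with open chromatin follows with 4297.

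MYC peaks were mostly distal. At gene ends lay 19.2% of MYC peaks, against 64.2% of H3K4me3 and 38.3% of H3K27ac peaks, and 40.6% of MYC peaks were open, against 91.6% and 80.0%. Distal MYC peaks that stood alone were narrow (median region 369 bp), ranked low in the MYC list (median percentile 44.1) and lay inside a gene in 42.3% of cases, against 49.9% of all distal regions. Those outside genes were a median of 48.8 kb from the nearest protein-coding gene. Distal regions with H3K27ac, MYC and open chromatin had a median MYC percentile of 56.8 and an ATAC percentile of 81.9, and the outside ones lay 18.7 kb away. MYC ranked highest where both MYC and H3K27ac were listed without open chromatin: the median percentile was 78.3 at the 882 such regions without H3K4me3 and 86.5 at the 52 with it. Peak scores are relative within a list, so these ranks compare MYC sites with each other only.

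Some distal sites stood out. Of the regions with H3K27ac, MYC and open chromatin, the first by mean rank was chr9:2999961-3008271 (1334.58, 569.44, 990.61 and 1221.66), 326960 bp from the nearest gene Alkbh8. Its places in these 4 lists were 7, 108, 13 and 1222. The next, with H3K27ac (344.08), MYC (397.71) and ATAC (165.28 and 1258.86), lay at chr5:142919811-142922440, 11835 bp from Actb, the beta-actin gene. The MYC-only region with the highest score was chr9:96079265-96080430 (822.86), 21459 bp from Xrn1. Another with MYC (419.81) and ATAC (127.26 and 1079.48) lay inside Evi5 at chr5:107759022-107759709. A set of 6 regions stood in the top 1% of all 5 lists, and no gene end did. They were chr1:24611364-24616484, chr12:3109610-3110284, chr2:98662020-98663506, chr2:98665709-98667776, chr6:103648707-103649869 inside Chl1, and chr9:35304712-35305860. The H3K4me3 list had 4 of its 10 highest peaks in them, the H3K27ac list 5, the MYC list 6 and the ATAC lists 5 and 2. Why the same places led every assay was not tested. No filter for repeats or artefact-prone sequence was applied to any list, and this limit holds for chr9:2999961-3008271 too.

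Assigned to the gene that contains it or lies nearest, a distal region with H3K27ac and open chromatin but no H3K4me3 belonged to 3577 genes (16.5%). Among the 38 HSC identity genes, 19 (50.0%) had at least 1. The excess was not particular to this combination. Distal regions that were open only belonged to 84.2% of the 38 genes, against 53.4% of all genes. For regions with MYC only the shares were 44.7% and 27.5%. Runx1, over its 225 kb, had 11 regions with H3K27ac and open chromatin but no H3K4me3. This was the highest number of any gene, and 4 of the 11 also had MYC. Erg had 4 such regions, 3 of them with MYC, Ikzf2 had 4 (1 with MYC), Kit 4 (0) and Ikzf1 3 (1). Erg and Ikzf2 were open with no other assay at their ends, and Kit had MYC and open chromatin, so for these 3 genes H3K27ac was listed away from the gene ends and not at them. The counts were not scaled by gene length.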

How the data were processed

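Each list gives peak positions with a score in BED form, 1 list per library, as the authors deposited it. The unit of the score is not stated per the file headers or labels; peak names begin with MACS_peak. The build mm10 and the tool CASAVA are given per the submitters' processing notes, and libraries were read on a HiSeq 2500 per the labels; no source used here gives the aligner, the caller version, the control library or the read depth.

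Peaks on chromosomes 1 to 19 and X were joined to RefSeq gene ends (GRCm38.p6, protein-coding, 21627 genes) where at least 1 bp lay within 1 kb. Open chromatin meant a peak in at least 1 ATAC library. Peaks of the 5 lists were merged, and regions without a base within 1 kb of a gene end were distal. Strand came from the RefSeq promoter table (17273 genes). Scores were turned into percentile ranks within each list. Python 3.11.15, pandas 2.3.3, numpy 2.4.6, scipy 1.17.1 and matplotlib 3.10.9 were used; overlap counts were checked with bedtools 2.31.1, and the joins were tested on simulated peaks. No p-value was computed.

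Named genes were Mtor and Myc, the 8 genes with the highest peak in each list, the 10 with the highest minimum rank, the 5 highest of each combination carried by at least 50 genes, and in each of 25 gene lists (1937 of 1942 names matched) up to 4 with all 4 assays, up to 2 with H3K4me3 and open chromatin without H3K27ac and up to 2 with both marks without MYC; distal regions were the 3 highest of each combination. Genes with predicted names were not named by this rule. Other genes are named in the text as examples chosen after their values were seen: Runx1, Tal1, Kit, Meis1, Myb, Spi1, Fli1, Ldb1, Erg, Ikzf1, Ikzf2, Cds2, Pcna, Hbb-bs, Hbb-bt and the lineage markers without a peak. The members and the lists were chosen with earlier results of these data known. Alternatives were other windows, ATAC rules, score minimums, equal list lengths and overlap limits, and leaving out each ATAC library. The start of any listed transcript, and distal regions without those in the top 1% of every list, were alternatives chosen after seeing the data.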

Additional observations from a re-analysis of the deposited data

Results flagged for a closer look

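Peaks on chromosome Y were not part of any comparison, and each list held some: 36 in the H3K4me3 list, 31 in the H3K27ac list, 75 in the MYC list, 15 in the first ATAC library and 37 in the second. These signals stand outside the gene ends and distal regions described above, and no control sample was compared with them.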

How the results depend on the processing

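Each list is 1 library, ATAC excepted, without counts or depth, so weak sites and absent sites cannot be told apart and no spread between libraries exists for the marks or MYC. No paired analysis was possible because 1 genotype was used and no test was made. Of 228 alternative values, 176 stayed within 1.5 times or within the interval. Only the correlations among these values could change sign, and none did. Outside them, 2 correlations did so among genes with a peak in all 5 lists. H3K4me3 with MYC went from 0.01 to -0.03, and H3K4me3 with the first ATAC library from 0.16 to -0.04. Counting only peaks with a score of at least 100 gave 1340 genes with all 4 assays, MYC at 21.1% of genes with both marks and open chromatin and at 5.00% of those with H3K4me3 and open chromatin without H3K27ac, and 26913 open-only, 3143 MYC-only, 2032 H3K27ac and open, 327 H3K27ac, MYC and open, and 244 distal regions with all 4. Requiring both ATAC libraries gave 1688 genes with H3K4me3 and open chromatin only, 383 open only, MYC shares of 51.8% and 14.7%, and 3819 open-only, 1237 H3K27ac and open, and 759 H3K27ac, MYC and open distal regions. Leaving out each ATAC library in turn gave ranges of 1689 to 3031 genes with H3K4me3 and open chromatin, 395 to 2344 open only, MYC shares of 48.9% to 51.8% and 10.8% to 14.7%, and distal ranges of 4375 to 42444, 1210 to 4287 and 749 to 1420; the low counts came without the second library. With 16019 peaks from each list there were 479 open-only genes, a MYC share of 43.7%, and 5045, 1422 and 654 distal regions. Windows of 2.5 and 0.5 kb gave MYC shares of 52.2% and 46.9% with both marks, and 14.2% and 9.49% without H3K27ac, and midpoints in the window gave 12.7% for the latter. Overlap of at least 50% of the shorter peak left 90.6% of H3K4me3, 74.6% of H3K27ac and 37.8% of MYC peaks open. At sites with all assays the correlations were 0.27 for H3K4me3 with H3K27ac and 0.22 for MYC with ATAC, and H3K4me3 with ATAC went from 0.39 to 0.01. In every setting run, MYC was more frequent with H3K27ac than without.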

Other observations

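MicroRNA genes outside the protein-coding windows showed the same combinations at a few sites. Of 1005 RefSeq hairpins (GRCm38.p6), 793 had no protein-coding gene end in reach, and of these 630 (79.4%) had no peak within 1 kb and 9 (1.13%) carried all 4 assays. They included Mir17, Mir18 and Mir19a of the miR-17-92 cluster, which promotes growth downstream of MYC, on shared peaks (Mir18 and Mir19a without the peak of the second ATAC library), and Mirlet7i, of the let-7 family that restrains growth. At Mir17 (chr14:115043671-115043754, plus strand) the H3K4me3 score was 205.05, H3K27ac 130.39, MYC 74.00 and ATAC 79.23 and 1158.19. Mirlet7i had 256.32, 267.31, 59.99 and ATAC at 74.11 and 492.10. These miRNAs were picked after their values were seen, as the best known among the 9. The mature forms from RefSeq are shown 5′ to 3′ with the seed, bases 2 to 8, in capitals, to show that the 4 printed here differ in seed; other members of the cluster are not shown.
mmu-miR-17-5p: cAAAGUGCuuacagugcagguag
mmu-miR-18a-5p: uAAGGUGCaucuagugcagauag
mmu-miR-19a-3p: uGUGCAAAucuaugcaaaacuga
mmu-let-7i-5p: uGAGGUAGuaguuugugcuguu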
